A study of Mus musculus with 16 samples.

Results

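The genes examined were the mouse TNF ligand superfamily (Tnfsf symbols) and the TNF receptor superfamily (Tnfrsf symbols), taken as every gene on the array whose symbol begins with Tnfsf or Tnfrsf and a number, each by its brightest probe set. They were 29 of 18850 named genes, 9 ligands and 20 receptors, each with a single probe set. Of these, 21 were bright enough to be tested, 5 ligands and 16 receptors, and 8 were dim. RNA came from colon organoids, cultured balls of colon epithelium grown with EGF, Noggin and R-spondin, and each of 16 samples was hybridised to 1 array. The 4 groups held 4 arrays each: wild type (WT), WT with recombinant TNFa at 50 ng/ml for 12 h, mutant, and mutant with the same TNFa treatment. The mutant organoids were labelled for altered alleles of ATF2 and ATF7, stress-regulated transcription factors that bind DNA as dimers with JUN and related proteins. Their labels disagree: some give ATF2 as floxed (fl/fl) and ATF7 as KO, others ATF2 as KO and ATF7 as floxed. No label names a Cre, says whether the floxed allele was recombined, or gives the age or number of the animals, so loss of both proteins is not known. Nothing says that numbered samples came from separate animals or cultures, so p-values reflect only how these samples vary, which may be technical.

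Ligands of this superfamily are mostly trimers on the cell surface, some of which are shed, and their receptors carry cysteine-rich repeats outside the cell. Receptors with a death domain recruit adaptor proteins that can switch on NF-kB or start cell death. Receptors without one bind TRAF proteins and signal to NF-kB and the MAP kinases, and decoy or soluble receptors bind ligand without passing on a full signal. In the gut, TNFa from immune cells acts on the epithelium through TNFR1 (Tnfrsf1a) and TNFR2 (Tnfrsf1b), and the other family members carry signals between epithelium, lymphocytes and myeloid cells.

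Values are log2 signals on which 1 unit is a doubling. A gene counted as above the dim level on an array when its signal exceeded the 40th percentile of that array (6.40 to 6.56 log2). Every adjusted p is from limma, with Benjamini-Hochberg adjustment over the 11766 genes tested, and a gene was called below 0.05. Fits with another filter were adjusted over the genes they kept, which were all 18850 with no filter. Errors of signals are SD over 4 arrays, and errors of differences are the SE of the fit. Array 2 of WT with TNFa stood apart, with a mean correlation of 0.977 with its group against 0.986 to 0.988 for the others. It was the highest of its group for 11 of the 21 tested members and the lowest for 4. That count alone does not set it apart, since array 3 of mutant with TNFa was the highest of its group for 10. All 13 colon epithelium markers on the array were above the dim level on every array, with summed linear signals of 47200 to 51100. Of the lymphocyte markers 0 of 8 were bright enough to test (summed signals 373 to 524), and of the endothelial markers 0 of 5 (163 to 203). Of 6 macrophage and dendritic cell markers only Fcgr1 was bright enough (373 to 449), and of 7 fibroblast and smooth muscle markers only Col1a1 (444 to 585). Ptprc, Cd3e, Cd79a, Adgre1 and Pecam1, which define lymphoid, myeloid and endothelial cells, were among the dim markers.

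The stretches of 250 bases before the annotated start are shown for the 3 genes with both a promoter sequence and the firmest rises (Tnfsf10, Tnfsf15 and Tnfrsf1b), and for Tnfrsf8, the neighbour of Tnfrsf1b, which was not called. They are from RefSeq, build GRCm38.p6, written 5′ to 3′ on the gene's own strand: Tnfsf10 chr3:27316827-27317076, plus strand; Tnfsf15 chr4:63745060-63745309, minus strand; Tnfrsf1b chr4:145246871-145247120, minus strand; Tnfrsf8 chr4:145315165-145315414, minus strand. Capitals mark matches to an NF-kB motif or to the AP-1 motif TGANTCA.
Tnfsf10: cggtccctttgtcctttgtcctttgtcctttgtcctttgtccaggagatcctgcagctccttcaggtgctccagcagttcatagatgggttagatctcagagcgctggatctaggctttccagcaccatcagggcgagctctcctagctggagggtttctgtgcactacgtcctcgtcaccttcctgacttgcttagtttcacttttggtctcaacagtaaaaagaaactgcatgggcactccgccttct
Tnfsf15: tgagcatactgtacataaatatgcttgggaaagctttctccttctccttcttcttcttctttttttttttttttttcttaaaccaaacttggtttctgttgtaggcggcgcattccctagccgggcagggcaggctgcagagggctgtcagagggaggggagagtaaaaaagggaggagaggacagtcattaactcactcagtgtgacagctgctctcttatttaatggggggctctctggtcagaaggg
Tnfrsf1b: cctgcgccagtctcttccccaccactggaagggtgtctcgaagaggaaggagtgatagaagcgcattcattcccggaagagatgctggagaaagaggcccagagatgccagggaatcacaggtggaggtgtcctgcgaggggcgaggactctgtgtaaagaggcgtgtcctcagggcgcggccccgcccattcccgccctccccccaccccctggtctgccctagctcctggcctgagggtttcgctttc
Tnfrsf8: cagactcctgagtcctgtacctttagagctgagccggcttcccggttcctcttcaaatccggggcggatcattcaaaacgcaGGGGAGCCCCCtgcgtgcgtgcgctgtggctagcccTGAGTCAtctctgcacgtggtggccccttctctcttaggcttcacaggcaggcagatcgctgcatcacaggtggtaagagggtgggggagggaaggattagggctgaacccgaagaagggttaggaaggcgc

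In the Tnfrsf8 stretch the first run of capitals holds an NF-kB match, read in overlapping registers that begin 168 and 167 bases before the start. The second is an AP-1 match that begins 132 bases before it. The stretches of Tnfsf10, Tnfsf15 and Tnfrsf1b held no match to either motif or to the CRE motif TGACGTCA. GC content was 51.6% for Tnfsf10, 46.8% for Tnfsf15, 62.8% for Tnfrsf1b and 60% for Tnfrsf8, against a median of 52.4% (quartiles 45.2% and 61.2%) over 32851 promoter windows. Those windows also take in the first bases after the start, and 23 members had 27 of them. Searched on both strands, the NF-kB motif was in 3 of the members' windows (11.1%, of Tnfrsf25, Tnfrsf8 and Tnfrsf9) and in 8.46% of all windows. The AP-1 motif was in 5 windows (18.5%, of Tnfrsf8, Tnfrsf9, Tnfsf13b and Tnfsf14) against 7.81% of all, and the CRE motif in 0 against 1.79%. A match is a run of letters and not a measured binding site, and the motifs can overlap each other. No promoter is shown for Tnfrsf10b, Tnfrsf11b, Tnfrsf22, Tnfrsf26, Tnfsf4 and Tnfsf9.

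TNFa raised a small set of the family in WT organoids. The ligand genes Tnfsf10 and Tnfsf15 rose 2.51-fold and 2.05-fold, the receptor genes Tnfrsf11b and Tnfrsf1b 1.62-fold and 1.56-fold, and Tnfrsf12a 1.16-fold. In all, 5 of 21 tested members were called higher and 0 lower, where 10.8% of all tested genes were called, 5.03% higher and 5.75% lower. In mutant organoids 4 members, the same ones without Tnfrsf12a, were called higher and 0 lower, where 5.98% of all genes were called, 3.51% higher and 2.47% lower. Tnfsf10 passed the filter on dim genes through the treated groups alone, so it could only be tested because it differed. The median change over the 21 members was 0.22 log2 in WT and 0.09 in mutant, beside 0.01 over all tested genes in each. The WT median takes in array 2 of WT with TNFa, which was the highest of its group for 11 of the 21 members. Without that array some WT effects were smaller, such as those of Tnfrsf11a (0.13 log2) and Tnfrsf22 (0.27). Others were larger, such as those of Tnfrsf10b (0.41) and Tnfrsf11b (0.81). The WT median thus depends in part on 1 array, and its difference from the mutant median was not tested. Values above 0 were found for 16 members in WT and 14 in mutant, beside 52.9% and 52.8% of all genes. RNA was measured from whole organoids, so more cells of a type and more RNA per cell cannot be told apart. Of the 13 epithelial markers, the goblet cell mucin Muc2 was called lower with TNFa in WT (-0.25 log2, adjusted p = 0.022) and had -0.02 in mutant (0.96), and its part in these values was not tested.

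**Figure D1:**
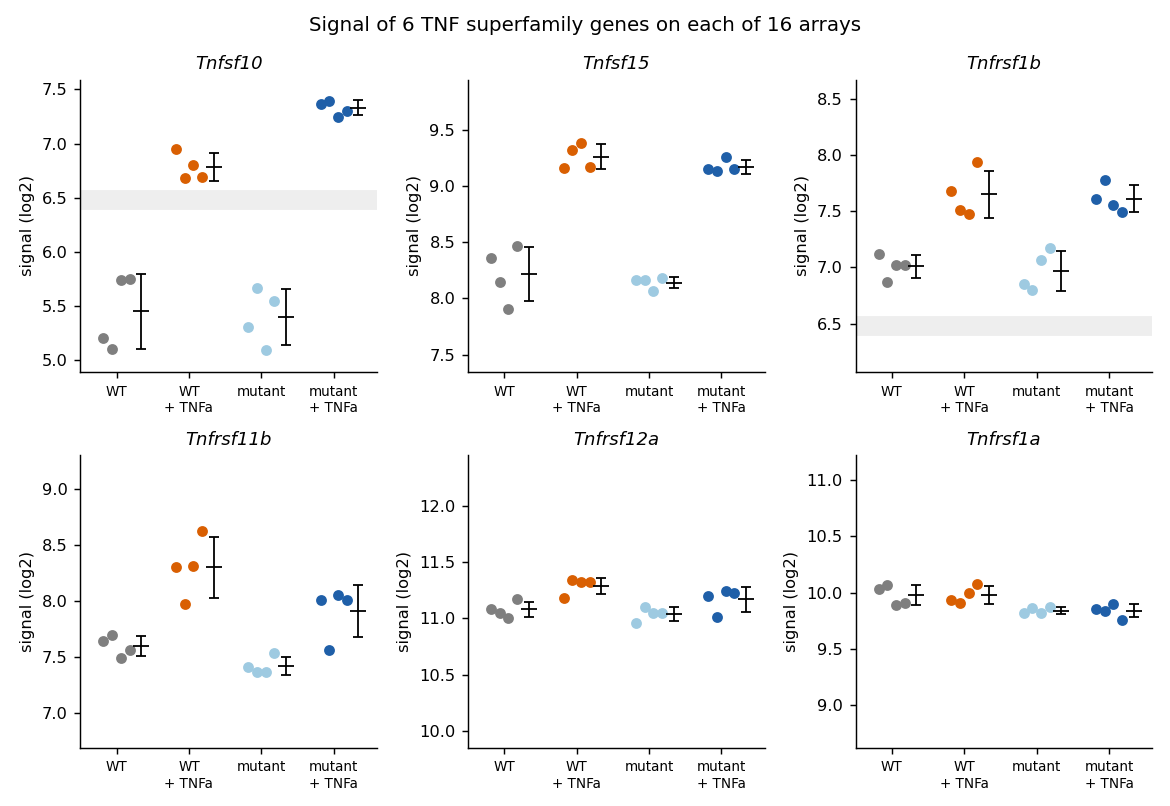
Log2 signal (vertical axis) of 6 family genes on each of 16 arrays, with 4 groups along the horizontal axis. Points are arrays, black marks are the mean ± SD of 4 arrays, and the grey band spans the dim levels of 6.40 to 6.56 log2; the vertical axes cover different ranges. Tnfsf10, Tnfsf15, Tnfrsf1b and Tnfrsf11b lie higher with TNFa in both genotypes without overlap, and Tnfrsf1a lies level with and without it.

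Tnfsf10, which encodes the death ligand TRAIL, had the largest change of any member. On arrays 1 to 4 its signal was 5.20, 5.10, 5.74 and 5.75 log2 in WT and 6.95, 6.68, 6.80 and 6.69 in WT with TNFa. In mutant it was 5.31, 5.67, 5.09 and 5.55 without TNFa and 7.37, 7.39, 7.25 and 7.30 with it. All 8 untreated arrays lay below the dim level and all 8 treated arrays above it, so the folds rest on a dim baseline and are approximate. The rise was 1.33 log2 in WT (SE 0.14, 95% interval 1.03 to 1.63, adjusted p = 6.4e-06) and 1.93 in mutant (SE 0.14, 1.63 to 2.23, adjusted p = 9.8e-08), where it was 3.8-fold.

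Tnfsf15 encodes TL1A, a ligand that co-stimulates lymphocytes through the death domain receptor DR3 and is linked to inflammatory bowel disease. Its signal was 8.36, 8.15, 7.91 and 8.47 log2 in WT and 9.16, 9.32, 9.38 and 9.17 in WT with TNFa. In mutant it was 8.16, 8.16, 8.07 and 8.18 without TNFa and 9.15, 9.13, 9.26 and 9.15 with it. Every treated array was higher than every untreated one, and the treated arrays of the genotypes overlapped. The rise was 1.04 log2 in WT (SE 0.09, 0.84 to 1.24, adjusted p = 9.8e-07) and 1.03 in mutant (SE 0.09, 0.83 to 1.23, adjusted p = 1.2e-06).

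The other 3 tested ligand genes were not called in either genotype. Tnfsf14 encodes LIGHT, a ligand of HVEM and of the lymphotoxin beta receptor, and had group means between 7.77 and 7.91 log2, with TNFa effects of 0.08 in WT (adjusted p = 0.64) and -0.09 in mutant (0.71). Tnfsf9, a co-stimulatory ligand of T cells, had effects of -0.01 (adjusted p = 0.96) and 0.09 (0.79). Tnfsf11 encodes RANKL, which drives osteoclasts and, in the gut, M cells. It lay near the dim level, above it on 10 of 16 arrays, with effects of -0.05 (adjusted p = 0.84) and -0.08 (0.82).

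Of the receptors of TNFa itself, Tnfrsf1b was called in both genotypes and Tnfrsf1a in neither. Tnfrsf1a, the death domain receptor TNFR1 found on most cells, had signals of 10.03, 10.07, 9.89 and 9.91 log2 in WT and 9.93, 9.91, 10 and 10.08 in WT with TNFa. In mutant these were 9.82, 9.86, 9.82 and 9.87 without TNFa and 9.85, 9.84, 9.90 and 9.76 with it. Treated and untreated arrays overlapped in both genotypes. The effect was 0.00 log2 in WT (95% interval -0.12 to 0.13, adjusted p = 0.97) and -0.01 in mutant (-0.13 to 0.11, adjusted p = 0.98).

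Tnfrsf1b encodes TNFR2, which lacks a death domain and binds TRAF2. Its signal was 7.12, 6.87, 7.02 and 7.02 log2 in WT and 7.68, 7.51, 7.48 and 7.94 in WT with TNFa. In mutant it was 6.85, 6.80, 7.07 and 7.17 without TNFa and 7.61, 7.78, 7.56 and 7.49 with it. Treated arrays were all higher than untreated ones. The rise was 0.64 log2 in each genotype (SE 0.10, 0.42 to 0.86, adjusted p = 0.00047 in WT and 0.00072 in mutant), 1.56-fold. The 95% intervals of the TNFa effect on Tnfrsf1a and on Tnfrsf1b did not overlap in either genotype; the difference between these genes was not tested.

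Among the other death domain receptors none was called. Tnfrsf10b encodes the TRAIL receptor DR5, and its mean signal went from 8.81 ± 0.19 log2 to 9.10 ± 0.26 with TNFa in WT, and from 8.76 ± 0.04 to 8.95 ± 0.08 in mutant. Its effect was 0.29 log2 in WT (SE 0.11, adjusted p = 0.1) and 0.19 in mutant (adjusted p = 0.46). Without array 2 of WT with TNFa, whose 8.75 log2 was the lowest of its group, the WT effect was 0.41 (adjusted p = 0.0061) and was called. Tnfrsf25, the DR3 receptor of TL1A, had effects of 0.05 (adjusted p = 0.83) and -0.01 (0.99) at group means of 8.01 to 8.13 log2. Tnfrsf21, the orphan death receptor DR6, had -0.09 (0.53) and -0.00 (1).

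Tnfrsf12a, which encodes Fn14, the receptor of the ligand TWEAK and a gene of tissue injury, was called in WT alone. Its signal was 11.08, 11.05, 11 and 11.17 log2 in WT and 11.18, 11.34, 11.32 and 11.32 in WT with TNFa. In mutant it was 10.96, 11.10, 11.05 and 11.05 without TNFa and 11.20, 11.01, 11.24 and 11.23 with it. The groups did not overlap in WT, although the gap between the nearest arrays was 11.17 against 11.18, and they overlapped in mutant. The rise was 0.22 log2 in WT (SE 0.06, adjusted p = 0.034) and the effect in mutant 0.13 (SE 0.06, adjusted p = 0.34), and mutant minus WT came to -0.09 (95% interval -0.28 to 0.10, adjusted p = 0.87). The WT call held under 16 of 28 alternative settings and was lost without array 2 of WT with TNFa (0.20 log2, adjusted p = 0.06), and likewise without array 3 or 4 of that group or array 1, 2 or 3 of WT. The ligand gene Tnfsf12 and its neighbour Tnfsf13 were not analysed here.

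The remaining TRAF-binding receptors were not called for TNFa. Tnfrsf11a, the RANK receptor of RANKL, had an effect of 0.26 log2 in WT (adjusted p = 0.1) and 0.15 in mutant (0.55). Array 2 of WT with TNFa read 8.76 log2 against 8.13 to 8.35 for the others of the group, and without it the WT effect was 0.13. Tnfrsf8, the lymphocyte receptor CD30, had 0.29 in WT (adjusted p = 0.095) and 0.28 in mutant (0.16). In mutant all its treated arrays (8.63, 8.63, 8.72 and 8.65) exceeded all untreated ones (8.46, 8.55, 8.32 and 8.18). Other tested members that were not called also had no overlap, Tnfrsf10b and Tnfrsf23 in mutant and Tnfrsf11a and Tnfrsf13c in WT. How many of all genes separate in this way was not counted. Tnfrsf13c, the BAFF receptor of B cells, had 0.29 in WT (adjusted p = 0.093) and -0.09 in mutant (0.81). Without array 2 of WT with TNFa, at 7.23 log2 the highest of its group, the WT value of Tnfrsf13c was 0.17 (adjusted p = 0.22). Leaving out array 3 of WT with TNFa brought Tnfrsf11a (0.34 log2, adjusted p = 0.0385) and Tnfrsf8 (0.37, 0.0346) past the threshold in WT, as leaving out WT array 3 did for Tnfrsf8 (0.36, 0.0445).

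Tnfrsf14 encodes HVEM, a receptor of LIGHT on epithelium and lymphocytes, and had effects of 0.12 log2 (adjusted p = 0.35) and 0.05 (0.86). Tnfrsf19 encodes TROY, a Wnt target of intestinal stem cells, and had 0.09 (0.57) and -0.16 (0.39). The T cell co-stimulatory receptors Tnfrsf4 (OX40) and Tnfrsf18 (GITR) lie side by side on chromosome 4. Tnfrsf4 had -0.13 in WT (adjusted p = 0.37) and 0.09 in mutant (0.69), and Tnfrsf18 had -0.18 (0.12) and 0.00 (0.99).

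Tnfrsf11b, which encodes osteoprotegerin, a secreted receptor that binds RANKL and TRAIL, was the receptor gene with the largest rise in WT. Its signal was 7.64, 7.70, 7.49 and 7.56 log2 in WT and 8.30, 7.97, 8.31 and 8.62 in WT with TNFa. In mutant it was 7.41, 7.37, 7.37 and 7.54 without TNFa and 8.01, 7.56, 8.05 and 8.01 with it. Groups did not overlap in either genotype, but array 2 of mutant with TNFa, at 7.56, barely exceeded the highest untreated array. The rise was 0.70 log2 in WT (SE 0.12, 0.45 to 0.95, adjusted p = 0.00078) and 0.48 in mutant (SE 0.12, 0.23 to 0.74, adjusted p = 0.02). The mutant call was lost when any of 6 arrays was left out (mutant 1, 2 or 3, or mutant with TNFa 1, 3 or 4), with adjusted p up to 0.0767.

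Tnfrsf22 and Tnfrsf23, mouse decoy receptors of TRAIL, and Tnfrsf26 lie together on chromosome 7 with no protein-coding gene between them. They are near copies that may share probe sequence, so their values are uncertain. Tnfrsf23 had an effect of 0.24 log2 in WT (SE 0.09, adjusted p = 0.1) and 0.30 in mutant (SE 0.09, adjusted p = 0.061). In mutant its treated arrays (8.15, 8.12, 8.35 and 8.35) were all above the untreated ones (7.79, 7.95, 8.01 and 8.01), and without array 2 of WT with TNFa it was called there (adjusted p = 0.0455), as it was without array 1 (0.0314) or 4 (0.0393) of that group. Tnfrsf22 was above the dim level on 9 of 16 arrays. It had 0.41 in WT (SE 0.13, adjusted p = 0.06), with array 2 of WT with TNFa at 7.32 against 6.60 to 6.95 for the others, and 0.27 (adjusted p = 0.15) without that array. In mutant its effect was 0.02 (adjusted p = 0.98). In WT, Tnfrsf22 was called without array 3 (0.51, adjusted p = 0.0243) or array 4 (0.46, 0.049) of WT with TNFa or mutant array 3 (0.41, 0.0461), and also with a variance trend (0.0487) or a replicate block within genotype (0.0394). Tnfrsf23 was called in WT without array 1 of WT with TNFa (0.32, 0.0237). In mutant Tnfrsf23 was also called with a filter at the 60th percentile (adjusted p = 0.0414), a variance trend (0.0481) or array weights (0.0243). The same held with only the groups compared (0.039) or a replicate block (0.0298).

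**Figure D2:**
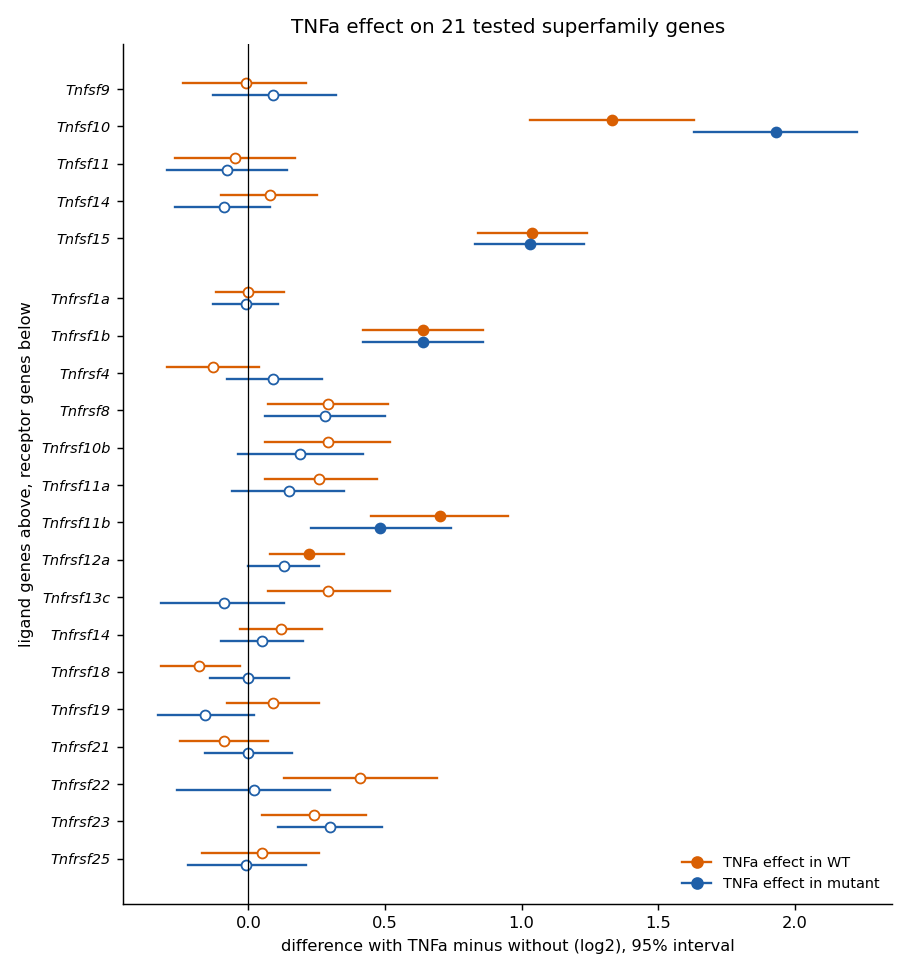
TNFa effect on the 21 tested members, as the log2 difference with minus without TNFa (horizontal axis), ligand genes above and receptor genes below. Orange is WT and blue is mutant, bars are 95% intervals, filled points were called and open points were not; 5 members are filled in WT and 4 in mutant, all on the right.

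TRAIL and its receptors can be read as 1 set. Tnfsf10 rose in both genotypes, as did the soluble receptor gene Tnfrsf11b. In the main fit DR5 (Tnfrsf10b) and both decoys were called in neither genotype, with Tnfrsf22 at 0.02 log2 in mutant. Some of these results passed the threshold under alternative settings, as given above. For TL1A, Tnfsf15 rose in both and its receptor gene Tnfrsf25 was called in neither. For the RANKL axis, only the soluble receptor gene Tnfrsf11b was called, and Tnfsf11 and Tnfrsf11a were not. Neither Tnfsf14 nor Tnfrsf14 was called, and of TNFa's own receptors Tnfrsf1b was called and Tnfrsf1a was not.

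Dim members were mostly genes known from lymphocytes and antigen-presenting cells. Some tested members are known from lymphocytes as well, such as Tnfrsf4, Tnfrsf8, Tnfrsf13c and Tnfrsf18. Tnfsf4 (the OX40 ligand), Tnfsf8 (the CD30 ligand), Tnfsf13b (BAFF), Tnfsf18 (the GITR ligand), Tnfrsf9, Tnfrsf13b (TACI) and Tnfrsf17 (BCMA) were above the dim level on 0 of 16 arrays. Their signals ran from 3.57 to 4.38 log2 for Tnfsf18, 3.71 to 4.22 for Tnfsf8, 4.50 to 5.22 for Tnfsf4, 4.57 to 5.25 for Tnfrsf17, 4.98 to 5.71 for Tnfrsf13b, 5.63 to 6.18 for Tnfrsf9 and 5.81 to 6.41 for Tnfsf13b. Tnfrsf26 was above the dim level on 2 arrays, with signals from 5.92 to 6.64. A signal below the dim level does not show that a gene was silent, and one above it does not show that it was expressed. Fitted with no filter, none of the 8 was called in any comparison, and the smallest adjusted p for TNFa was 0.22, for Tnfsf8 (0.26 log2) and Tnfrsf9 (0.20 log2) in WT.

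For several pairs only the ligand gene or only the receptor gene was above the dim level. The receptor genes Tnfrsf4, Tnfrsf18 and Tnfrsf8 were tested while their ligand genes Tnfsf4, Tnfsf18 and Tnfsf8 were dim. The ligand gene Tnfsf9 was tested while its receptor gene Tnfrsf9 was dim. For the ligand BAFF, the gene Tnfsf13b and the receptor genes Tnfrsf13b and Tnfrsf17 were dim, and Tnfrsf13c was above the dim level on 15 of 16 arrays at group means of 6.56 to 6.86 log2, close to that level.

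**Figure D3:**
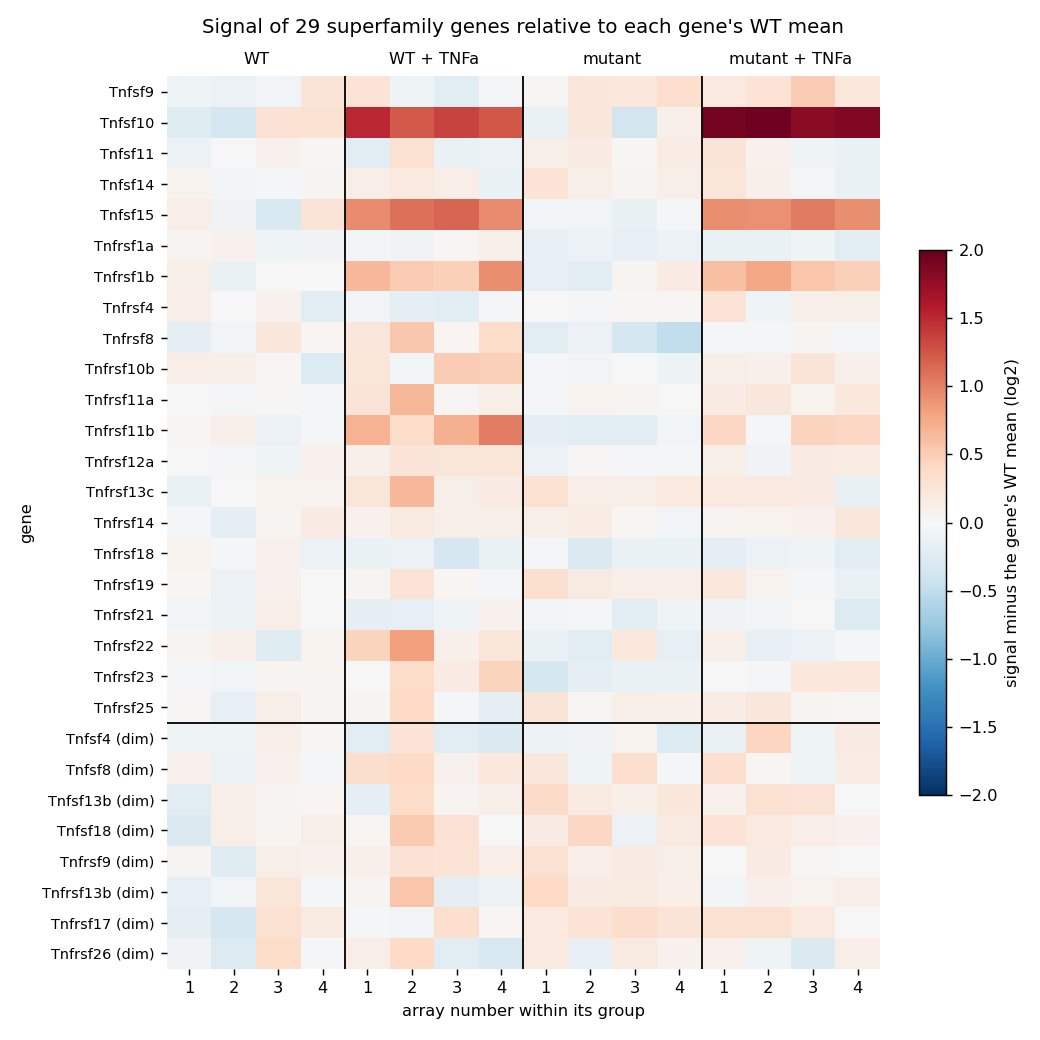
Log2 signal of all 29 members minus the gene's WT mean (colour, blue below 0 and red above), genes in rows and the 16 arrays in columns, numbered 1 to 4 within each group. Genes below the horizontal line are the 8 dim ones; Tnfsf10, Tnfsf15, Tnfrsf1b and Tnfrsf11b form the red stretches under TNFa, and array 2 of WT with TNFa is redder than its neighbours in many rows.

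Of the neighbouring pairs, 2 held a member that rose beside one that was not called or was dim; no difference between neighbours was tested. Tnfrsf1b rose while Tnfrsf8, next to it on chromosome 4, was not called (0.29 log2 in WT and 0.28 in mutant). Tnfrsf8 held the motif matches shown above, and their part in these values was not tested. Tnfsf15 rose in both genotypes while its neighbour on chromosome 4, Tnfsf8, was dim on every array. Tnfsf4 and Tnfsf18, neighbours on chromosome 1, were both dim. Tnfsf9 and Tnfsf14 lie on chromosome 17 with 1 protein-coding gene between them, and neither was called.

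Between genotypes the counts of called members lay near the share over all genes. Without TNFa, limma called 0 of 21 members and 5 had an unadjusted p under 0.05, where 2.48% of all tested genes were called (1% higher and 1.48% lower) and 1570 of 11766 had such a p. With TNFa, 1 member was called higher in mutant, Tnfsf10, where 2.69% of all tested genes were called (1.56% higher and 1.13% lower), and 7 had an unadjusted p under 0.05 beside 1601 of 11766. The median genotype effect over the members was -0.04 log2 without TNFa and -0.05 with it, beside -0.01 and -0.00 over all tested genes. Effects were above 0 for 9 members without TNFa and 6 with it, beside 47.7% and 49.4% of all tested genes. The epithelial marker Cdx2, a gut transcription factor, was lower in mutant (-0.52 log2 without TNFa, adjusted p = 0.016, and -0.41 with it, adjusted p = 0.065), and its part in these values was not tested.

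Tnfsf10 did not differ between untreated genotypes beyond its spread (-0.05 log2, SE 0.14, 95% interval -0.35 to 0.25, adjusted p = 0.94), at signals below the dim level. Among treated organoids it was 0.55 log2 higher in mutant (1.46-fold, SE 0.14, 0.25 to 0.85, adjusted p = 0.048), with means of 7.33 ± 0.07 against 6.78 ± 0.13, and all 4 mutant arrays lay above all 4 WT arrays. This call sat at the threshold: it held under 13 of 26 alternative settings, in which the value stayed between 0.52 and 0.61. It was lost when any of the 8 treated arrays or mutant array 1 or 4 was left out (without array 2 of WT with TNFa, 0.52 and adjusted p = 0.1).

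Tnfrsf1a had a genotype effect of -0.13 log2 without TNFa (SE 0.06, adjusted p = 0.31) and -0.14 with it (adjusted p = 0.25). Every mutant array lay below every WT array of the same treatment, but neither difference was called. Without TNFa the genotypes also did not overlap for Tnfrsf13c, Tnfrsf19 and Tnfrsf23, which were not called either. The share of all genes whose groups separate this way was not counted. Tnfrsf8 had -0.30 without TNFa (adjusted p = 0.2) and -0.30 with it (0.17), and Tnfrsf23 had -0.20 (0.33) and -0.14 (0.52). With TNFa, Tnfrsf22 had -0.45 (SE 0.13, adjusted p = 0.087) and Tnfrsf11b -0.39 (SE 0.12, adjusted p = 0.11). Tnfrsf11b was called lower in mutant without array 2 of WT with TNFa (-0.50, adjusted p = 0.019), while Tnfrsf22 then had -0.31 (0.18). On the positive side, with TNFa Tnfsf9 had 0.31 (adjusted p = 0.17) and Tnfrsf4 0.23 (0.18). Tnfrsf19 had 0.19 without TNFa (0.31) and -0.05 with it (0.83).

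**Figure D4:**
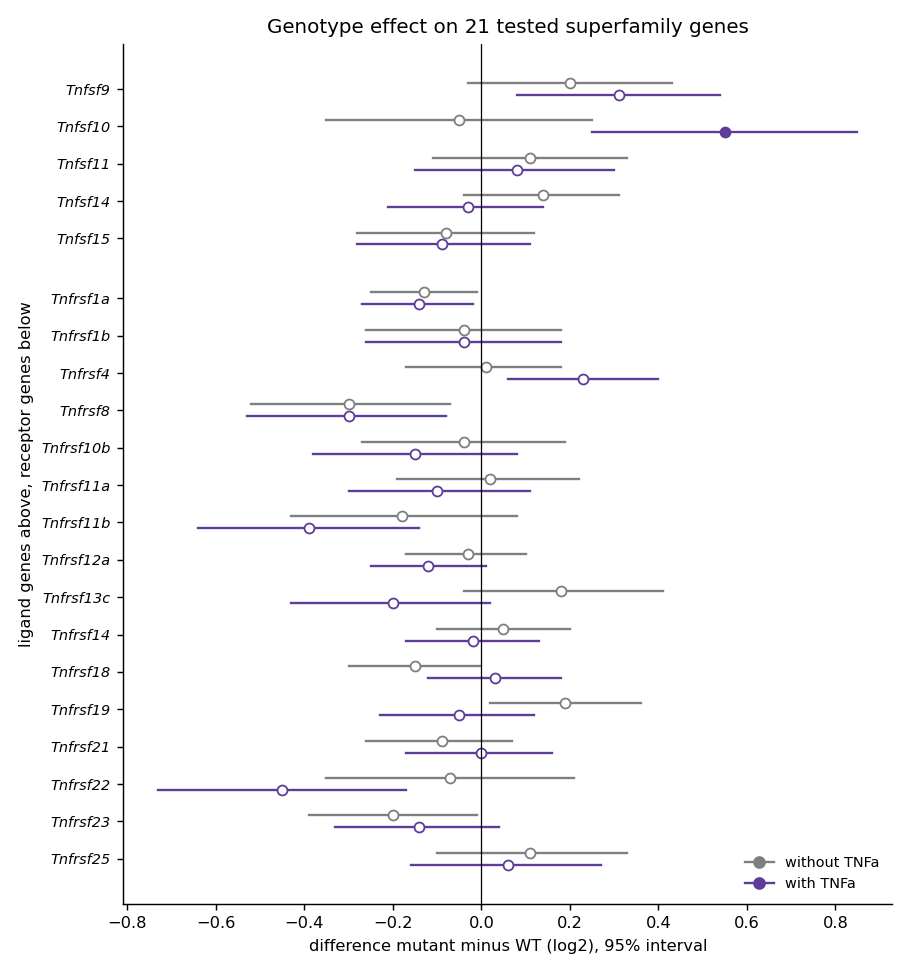
Genotype effect on the 21 tested members, as the log2 difference mutant minus WT (horizontal axis), ligand genes above and receptor genes below. Grey is without TNFa and purple with TNFa, bars are 95% intervals, filled points were called; the single filled point is Tnfsf10 with TNFa, at 0.55.

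Whether genotype altered the TNFa response was tested as the TNFa effect in mutant minus that in WT. Limma called 0 of 21 members, and 3 had an unadjusted p under 0.05 (Tnfsf10, Tnfrsf13c and Tnfrsf19), where 1 of 11766 tested genes was called (0.0085%) and 855 had such a p. The difference for Tnfsf10 was 0.60 log2 (SE 0.20, 95% interval 0.17 to 1.02, adjusted p = 0.49), so its larger rise in mutant was not called. Both of its untreated groups lay below the dim level, so this difference and its interval are approximate. For Tnfrsf13c it was -0.38 (SE 0.15, -0.70 to -0.07, adjusted p = 0.58), or -0.26 without array 2 of WT with TNFa, and for Tnfrsf19 -0.25 (SE 0.12, adjusted p = 0.68). Intervals for the other risers were -0.29 to 0.27 for Tnfsf15, -0.31 to 0.31 for Tnfrsf1b and -0.57 to 0.14 for Tnfrsf11b, which bound any difference without showing that the genotypes respond alike. The effects in WT and mutant, which share no arrays, correlated across the 21 members with Pearson's r of 0.90 and Spearman's rho of 0.63, and with an r of 0.36 over the 16 members called in neither. These describe genes, which are not independent replicates.

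Superfamily genes whose symbols do not follow the pattern came from a list of 15; the array named 13, and 10 were bright enough to test. In WT 2 of the 10 rose and 0 fell, where 5.03% of all tested genes rose and 5.75% fell. In mutant 1 rose and 0 fell, where 3.51% of all tested genes rose and 2.47% fell. Tnf, the gene of TNFa itself, went from a mean of 7.11 ± 0.14 log2 to 8.85 ± 0.20 with TNFa in WT, and from 6.58 ± 0.38 to 8.91 ± 0.12 in mutant. It rose 3.33-fold in WT (1.73 log2, SE 0.14, adjusted p = 3.8e-07) and 5.02-fold in mutant (2.33 log2, SE 0.14, adjusted p = 1.1e-08), and the difference of 0.59 log2 was not called (SE 0.20, adjusted p = 0.52). Tnf was above the dim level on 14 of 16 arrays, and its mutant baseline lay near that level, so the mutant fold is approximate. Mutant minus WT, Tnf had -0.54 log2 without TNFa (SE 0.14, adjusted p = 0.061) and 0.06 with it (adjusted p = 0.91). The treated levels were therefore close, and the untreated ones further apart. The untreated difference was not called in the main fit but was with some other settings, such as array weights (-0.60, adjusted p = 0.0126). Fas, a death receptor, rose 1.28-fold in WT (0.35 log2, SE 0.10, adjusted p = 0.037) and had 0.12 in mutant (adjusted p = 0.68). The Fas call in WT was lost with no filter (adjusted p = 0.0683) and without any of WT arrays 1, 2 and 4 or arrays 1 and 2 of WT with TNFa (0.28 log2 and adjusted p = 0.0931 without the last). Ltbr, the lymphotoxin beta receptor, had -0.10 (adjusted p = 0.41) and 0.00 (0.99). Cd40, a receptor that signals through TRAF proteins, had 0.18 (0.41) and 0.16 (0.64). The list's median was 0.13 log2 in WT and 0.04 in mutant, beside 0.01 over all tested genes in each.

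Of 45 listed genes of TNF receptor signalling, 40 were on the array and 36 tested. In each genotype 12 rose and 1 fell with TNFa, where 5.03% of all tested genes rose and 5.75% fell in WT, and 3.51% and 2.47% in mutant. This list, like the others, was chosen with earlier results of these data known, so its counts are descriptive and no independent test. The list's median was 0.17 log2 in WT and 0.11 in mutant, beside 0.01 over all genes. With no filter 11 rose and 1 fell in WT, and 9 rose and 0 fell in mutant. For genotype without TNFa, genotype with TNFa and the difference of effects limma called 0, with 7, 5 and 2 of the 36 at an unadjusted p under 0.05 beside 1570, 1601 and 855 of all genes. By smallest p the leading ones were the same 4 genes in both genotypes. Tnfaip3, whose product A20 restrains NF-kB, rose by 1.94 log2 in WT (adjusted p = 9.6e-09) and 1.87 in mutant (1.2e-08). Nfkbia, which encodes the inhibitor IkBa, rose by 1.32 (7.7e-09) and 1.47 (1.3e-09), the NF-kB subunit gene Nfkb2 by 1.04 (7.6e-09) and 1.15 (1.3e-09), and Birc3, which encodes the ubiquitin ligase cIAP2 at TNF receptors, by 1.01 (3.8e-08) and 1.22 (2.9e-09). The gene that fell, named after its values were seen, was Map3k5, which encodes the stress kinase ASK1 (-0.57 log2 in WT, adjusted p = 0.00052, and -0.34 in mutant, adjusted p = 0.041, where the groups overlapped and the call was lost with no filter).

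Of 5 genes for the shedding of ligands and receptors, all tested, Rhbdf2 rose and 0 fell in each genotype. Over all tested genes 5.03% rose and 5.75% fell in WT, and 3.51% and 2.47% in mutant. Rhbdf2 encodes iRhom2, which brings the TNF-releasing protease ADAM17 to the cell surface, and rose by 0.30 log2 in WT (SE 0.06, adjusted p = 0.0019) and 0.36 in mutant (SE 0.06, adjusted p = 0.00054). Adam17, Adam10, Rhbdf1 and Timp3 were not called.

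**Figure D5:**
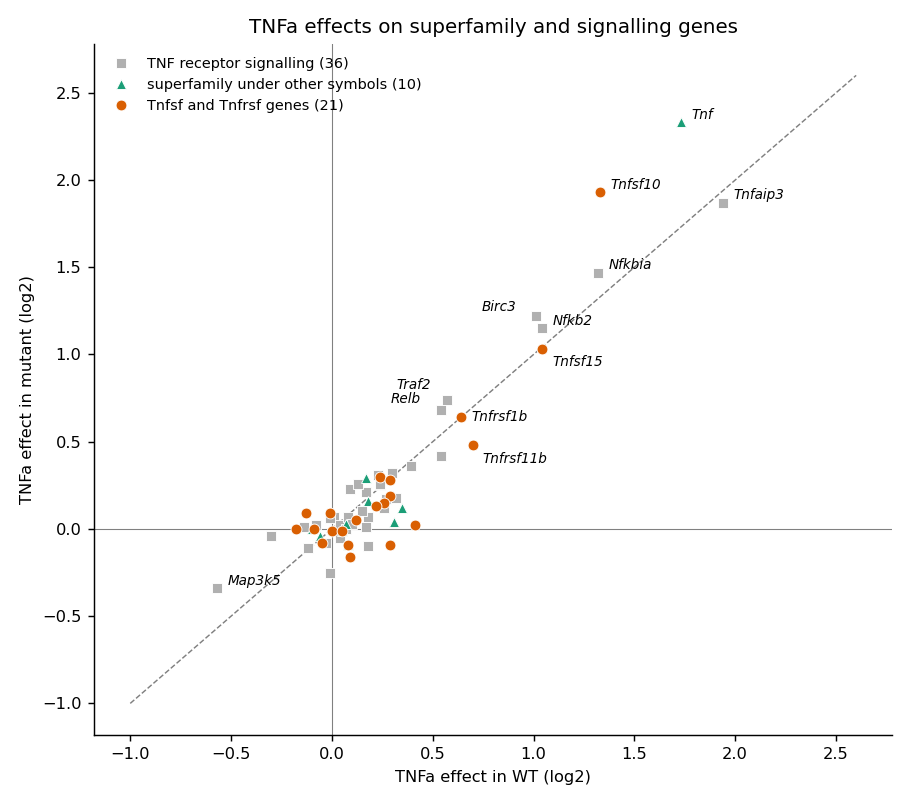
TNFa effect in mutant (vertical axis) against TNFa effect in WT (horizontal axis), both in log2, for the 21 tested family members (circles), 10 superfamily genes under other symbols (triangles) and 36 signalling genes (squares), with the dashed line marking equal effects. Tnf and Tnfsf10 lie above the line (2.33 against 1.73, and 1.93 against 1.33), and Tnfsf15 and Tnfrsf1b on or close to it.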

How the data were processed

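RNA from 16 mouse colon organoid samples was measured on single-colour Affymetrix arrays, and the deposited values are log2 signals that the authors made with RMA in Affymetrix Expression Console, according to the submitters' processing notes. Tool versions, probe positions and the genome build are not given in the sources used here. Of 19825 probe sets, 18851 carried a gene symbol. Genes above their array's 40th percentile on at least 4 of 16 arrays were tested (11766), and no further normalization was applied. One limma 3.58.1 fit (R 4.3.3) to 4 group means gave 5 comparisons: the TNFa effect in each genotype, the genotype effect in each treatment, and the TNFa effect in mutant minus that in WT. Samples were grouped by their own titles, since the protocol text gives the treatment for all. The functions were tested on simulated arrays. The members and lists were chosen with earlier results of these data known. Values per array are given for each called member and for the TNFa receptors, up to 4 called genes by smallest p for the signalling and shedding lists. Alternatives covered the filter, probe sets, variance model, array weights, centring, quantile normalization, the samples fitted, the replicate number, a minimum change and leaving out each array. All 29 members matched RefSeq by gene ID. Array number limits the precision. Same-numbered samples did not deviate together in every pair (correlations from -0.30 to 0.19 between treated and untreated), so numbers were not taken as pairs.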

Additional observations from a re-analysis of the deposited data

Results flagged for a closer look

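Of 84 sets of 4 arrays (21 tested members in 4 groups), 8 had 1 array far from the rest by Dixon's test, which chance does in about 1 in 20 sets. In mutant with TNFa these were Tnfrsf10b on array 3 (9.07 log2, nearest 8.92), Tnfrsf11b on array 2 (7.56, nearest 8.01) and Tnfrsf13c on array 4 (6.41, nearest 6.72). In WT with TNFa they were Tnfrsf12a on array 1 (11.18, nearest 11.32) and Tnfrsf18 on array 3 (7.95, nearest 8.15). In WT they were Tnfrsf22 on array 3 (6.26, nearest 6.55) and Tnfsf9 on array 4 (7.45, nearest 7.14), and in mutant Tnfsf15 on array 3 (8.07, nearest 8.16). They fell on several arrays, and none was on array 2 of WT with TNFa, the array that stood apart over all genes.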

How the results depend on the processing

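In WT, 5 members were called for TNFa, 3 under the stricter filter (the 60th percentile), where Tnfsf10 and Tnfrsf1b were too dim to test, and 2 against a minimum change of 1.2-fold. With array weights 7 were called, Tnfrsf10b (0.41 log2, adjusted p = 0.00598) higher and Tnfrsf18 (-0.22, 0.0446) lower among them. Over all genes array weights gave 1761 calls, beside 1269 in the main fit. Leaving out 1 array gave 4 to 7 members. In mutant, 4 were called, 2 against the minimum change and 3 to 5 without 1 array. For genotype with TNFa, 1 was called, 0 with no filter, the stricter filter, the replicate block or the minimum change, 2 with array weights, and 0 to 1 without 1 array. When that 1 array was number 1, 2 or 3 of WT with TNFa, the called member was Tnfsf9, Tnfrsf11b or Tnfrsf22 in turn. Genotype without TNFa and the difference of effects gave 0 members throughout. Tnfsf10 and Tnfsf15 were called for TNFa in both genotypes under every alternative that tested them. Across all single members and alternatives, 0 called values changed sign.

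The replicate number was not taken as a pairing, although weak correlations between same-numbered samples cannot exclude that it is one. With it as a block, 4 members were called in WT (Tnfrsf12a was lost, adjusted p = 0.0547), 5 in mutant (Tnfrsf23 was gained, adjusted p = 0.0298) and 0 for genotype with TNFa (Tnfsf10, adjusted p = 0.091). A replicate block within genotype gave 5 in WT, with Tnfrsf22 (adjusted p = 0.0394) in place of Tnfrsf12a. Counts over all genes moved by over 1.5 times in places. TNFa in WT gave 1269, or 720 with only the groups compared and 216 with the minimum change. TNFa in mutant gave 704, or 1095 with array weights and 143 with the minimum change. Genotype without TNFa gave 292, 443 and 60 in the same order. Genotype with TNFa gave 317, or 617, 55, and 185 with only the groups compared. The difference gave 1, or 3 with the stricter filter or array weights, 5 with a variance trend and 0 with a block or the minimum change. The cause was not tested. Low signal limits Tnfsf10 without TNFa, Tnfsf11, Tnfrsf22 and the 8 dim members.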
